A study of Mus with 438 samples.

Results

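Cones from the superior retina of adult mice with a knockout of the thyroid hormone receptor gene Thrb were compared with superior cones of control mice over all 10390 genes of the deposited table. The members were the single-cell RNA libraries labelled as superior cones of the 2 month age, 50 from knockout and 53 from control mice, so 103 of the 430 RNA libraries of the series. Knockout mice were C57BL/6 of genotype Trb2Cre-KO:Ai6, and control mice were C57BL/6 of genotype Trb2Cre-het:Ai6. The controls therefore carry the Cre driver too, as heterozygotes, and both genotypes carry the Ai6 reporter, by whose fluorescence cells were picked one by one after papain treatment. Beside them stand inferior cones of the same genotypes and age (48 knockout and 50 control libraries), 26 superior and 21 inferior control cones of postnatal day 60 (P60), superior control cones of P2 and P21 (the P2, P21 and P60 cones are also Trb2Cre-het:Ai6), and 29 rods of the 2 month age. The series also holds regions bound by the tagged receptor in embryonic day 18 retina (ChAP-seq) and regions of changed open chromatin in purified P30 cone nuclei (ATAC-seq).

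Cones are the photoreceptors of daylight vision. In mice most cones make both M opsin (Opn1mw), which absorbs middle wavelengths, and S opsin (Opn1sw), which absorbs short ones, with M opsin richer in the superior and S opsin richer in the inferior retina. Thrb encodes a nuclear receptor whose cone isoform is required for M opsin and restrains S opsin.

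Labels name no animal, so the cells of a group were taken as 1 sample, and no test or p-value was possible. Differences were called by size: the mean CPM (reads scaled to the total of the library) plus 1 had to differ at least 2-fold, and the higher side needed a mean of 10 CPM or more and 25% or more of its cells above 1 CPM. Ratios are log2 of (mean CPM + 1), knockout over control. Intervals on shares of cells are exact Clopper-Pearson intervals at 95%, which cover counting error alone, and where no cell exceeded 1 CPM the limit given is 3 cells of the total.

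Libraries had 5942503 to 22060795 reads in knockout and 7371655 to 32636811 in control superior cones, with a median of 5072 genes above 0 in knockout and 5824 in control cells. P60 superior controls were shallower, with 897893 to 3888570 reads and a median of 4374 genes above 0. All 10 cone markers were in the table, and they summed to 69090 to 149888 CPM in 49 knockout cells and 29260 to 108615 CPM in control cells, against a median of 2.21 CPM in rods. Opn1sw and Opn1mw are among these markers, so the sums carry the opsin differences given below and do not compare cone identity between genotypes. Knockout library 35 stood apart, with 282 CPM of summed cone markers, 20.1 CPM of summed rod markers (at least 7461 CPM in the other knockout cells) and 4723 CPM of the neuronal gene Snap25. Without it 394 genes (3.79%) were higher and 603 (5.8%) lower, beside 433 and 591 with it, and neither of the library pairs used below holds it. Summed rod markers had a median of 17836 CPM in knockout and 16403 CPM in control cones, against 140206 CPM in rods, and their part in the results was not tested.

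The knockout libraries also fell into 2 sets. Aldoart2, an expressed copy of the glycolytic gene Aldoa, had 0 to 3.61 CPM (median 1.57) in knockout libraries 01 to 27, and 26.4 to 199.6 CPM (median 97.5) in the 22 cells of libraries 28 to 50 other than 35. It had 0.31 to 5.86 CPM in the 2 month controls and 43.1 to 345 CPM in the P60 controls. The first knockout set thus lies with the 2 month controls and the second with the P60 controls, without overlap between the levels. Gapdh followed the same division, with medians of 38.2 CPM in the first (low) and 399.8 CPM in the second (high) knockout set, 32.6 CPM in 2 month controls and 496 CPM in P60 controls. Near-identical copies make the counts of both genes uncertain. Xist, the RNA of the inactive X chromosome, exceeded 1 CPM in 13 of 27 low-set and 22 of 22 high-set knockout cells, in 15 of 53 cells of the 2 month controls and in 0 of 26 P60 controls. The 2 month controls and the low set were not uniform either. Among 2 month controls, Xist exceeded 1 CPM in libraries 01 to 15 alone. Their libraries 36 to 41 had 4453 to 4814 genes above 0, and libraries 42 to 53 had 6764 to 7934. Low-set knockout libraries 01 to 16 had 4643 to 5493 genes above 0, and libraries 17 to 27 had 5339 to 6978. What divides the libraries was not tested. Results are therefore given for the pooled groups and for 2 pairs that share no cell, the low set over the 2 month controls (low pair) and the high set over the P60 controls (high pair), a division made after the data were seen. In the high pair every knockout cell and no control cell exceeded 1 CPM of Xist, so genotype and Xist status cannot be told apart there. This limit reaches the genes called in both pairs. The high pair is also uneven in depth, with medians of 8478866 reads in the high set and 1972963 in P60 controls, and no check at equal depth was made for it.

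**Figure D1:**
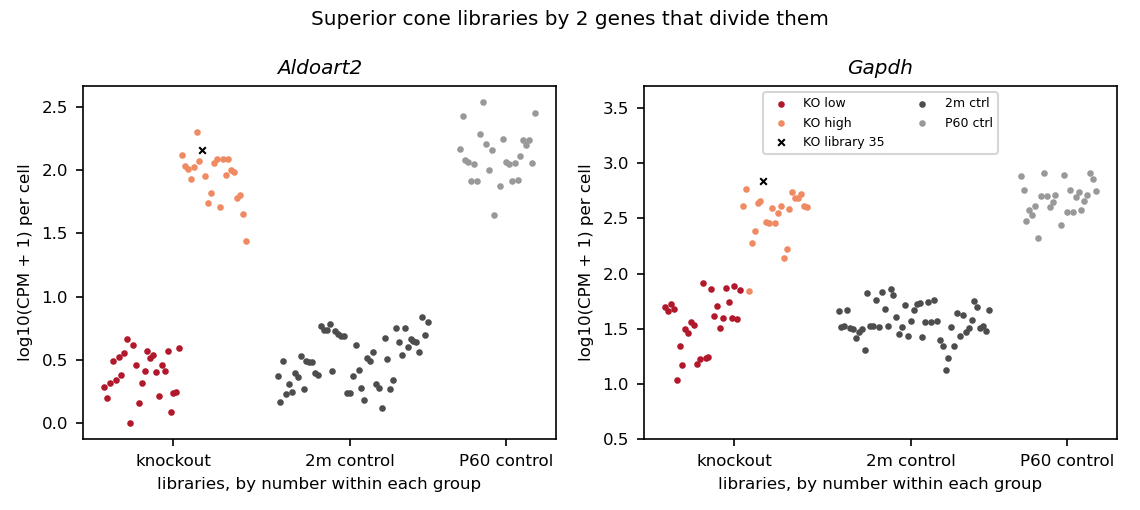
Aldoart2 (left) and Gapdh (right) in each superior cone library, on a log10(CPM + 1) axis, with libraries in number order within knockout, 2 month control and P60 control cells. Low-set knockout cells (at most 3.61 CPM of Aldoart2) lie with the 2 month controls (at most 5.86), and high-set cells (at least 26.4) with the P60 controls (at least 43.1).

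Pooled, 433 genes were higher in knockout superior cones (4.17% of genes) and 591 were lower (5.69%). These shares are not above those between the control collections of the same zone and genotype, where 901 genes (8.67%) were higher and 685 (6.59%) lower in P60 than in 2 month controls. Against the P60 controls, knockout cones had 579 higher (5.57%) and 963 lower genes (9.27%). How cells are averaged moved the balance of directions: with log2(CPM + 1) averaged over cells, 141 genes (1.36%) were higher and 1749 (16.8%) lower, so higher genes made up 7.46% of the calls in place of 42.3%. Both averages called 113 genes (1.09%) higher and 489 (4.71%) lower. At the limit of the pooled rule stood Atad2b just inside (1.0030) and Pcdhgc3 just outside (0.9977) among higher genes, and Itgb3bp (-1.0014) and Gm26679 (-0.9991) among lower ones.

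The low pair gave 340 higher (3.27%) and 958 lower genes (9.22%), and the high pair 766 higher (7.37%) and 1024 lower (9.86%). In both pairs 65 genes were higher (0.626%) and 252 were lower (2.43%), the shares of all genes to set beside the list counts that follow. The 65 are 19.1% of the higher genes of the low pair and 8.49% of those of the high pair, and the 252 are 26.3% and 24.6% of the lower genes. Of the genes higher in the low pair 36 were lower in the high pair, and of those lower in the low pair 67 were higher in the high pair. Of the 433 pooled higher genes 60 were in both pairs and 139 in neither, and of the 591 pooled lower genes 205 were in both and 87 in neither. Genes that met the rule in both pairs are described first below, by their roles.

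**Figure D2:**
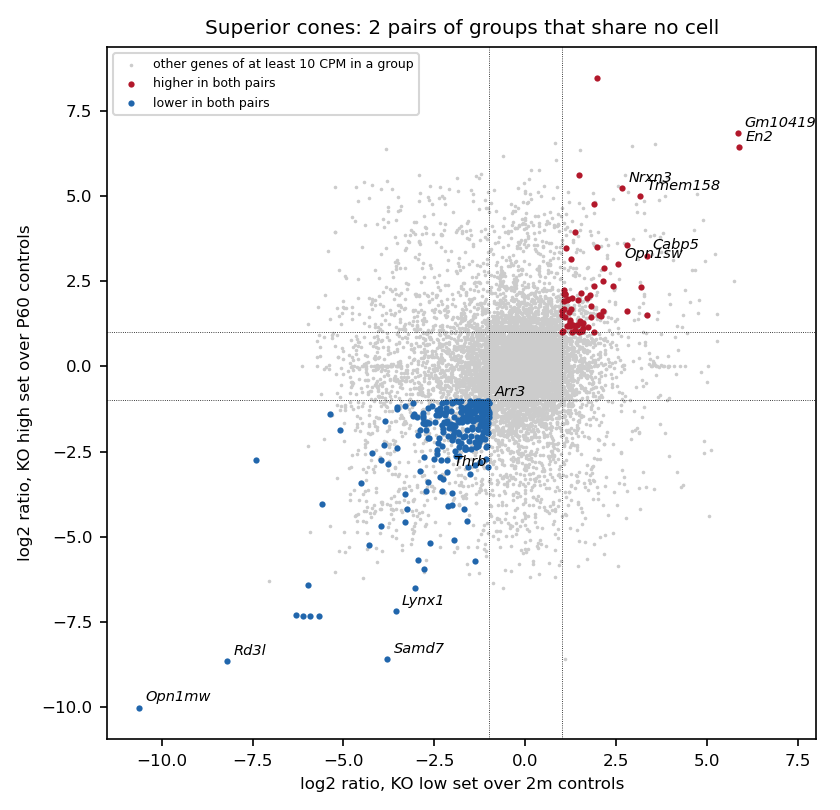
Log2 ratio of each gene of at least 10 CPM in a group, for the knockout low set over 2 month controls (x axis) and the knockout high set over P60 controls (y axis). The 65 genes higher and the 252 genes lower in both pairs are coloured, and the other points include genes far from 0 in 1 pair alone.

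M opsin was nearly absent from knockout superior cones, and S opsin was higher in them than in controls. Opn1mw had 0 to 86.6 CPM in low-set knockout cells (median 0), against 3269 to 22522 CPM in 2 month controls (median 8277), a log2 ratio of -10.63. It had 0 to 194 CPM in the high set (median 0), against 3653 to 25613 CPM in P60 controls (median 9954), a ratio of -10.02. No knockout cell reached the lowest control cell. In summed reads Opn1mw made up 6.32 CPM in knockout (Poisson interval 6.12 to 6.52, counting error alone) and 9911 CPM in 2 month control cells (9904 to 9918). It exceeded 1 CPM in 10 of 50 cells (20%, interval 10% to 33.7%) of the knockout, against 0 of 29 cells, which allows a share of up to 10.3%, in rods.

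Opn1sw had 42658 to 113656 CPM in the low set (median 72558), against 44.3 to 65875 CPM in 2 month controls (median 9991), a ratio of 2.56. It had 50015 to 97648 CPM in the high set (median 69519), against 125 to 41767 CPM in P60 controls (median 1069), a ratio of 3.01. The high pair did not overlap, while the highest 2 month controls reached into the low set. By the M share of opsin CPM (M cells above 0.9, S cells below 0.1), 50 of 50 knockout cells were S (interval 92.9% to 100%), and the highest M share was 0.252%. These include library 35, which had 225 CPM of Opn1sw and whose low cone markers do not mark it as an S cone. Without it, 27 of 27 low-set cells (interval 87.2% to 100%) and 22 of 22 high-set cells (interval 84.6% to 100%) were S. Of the 2 month controls 12 of 53 were M (22.6%, interval 12.3% to 36.2%), 40 were mixed and 1 was S. Of the P60 controls 14 of 26 were M (53.8%, interval 33.4% to 73.4%) and 12 were mixed.

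Thrb was counted over the whole gene, so isoforms and transcripts of the Cre allele cannot be told apart. It averaged 47 CPM in low-set knockout cells and 213 CPM in 2 month controls (ratio -2.16), and 40.5 CPM in the high set and 358 CPM in P60 controls (-3.11). It exceeded 1 CPM in 19 of 50 cells (38%, interval 24.7% to 52.8%) of the knockout, against 46 of 53 cells (86.8%, interval 74.7% to 94.5%) of the 2 month controls. Thrb reads were thus found in part of the knockout cells, up to 454 CPM, and the groups overlapped.

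**Figure D3:**
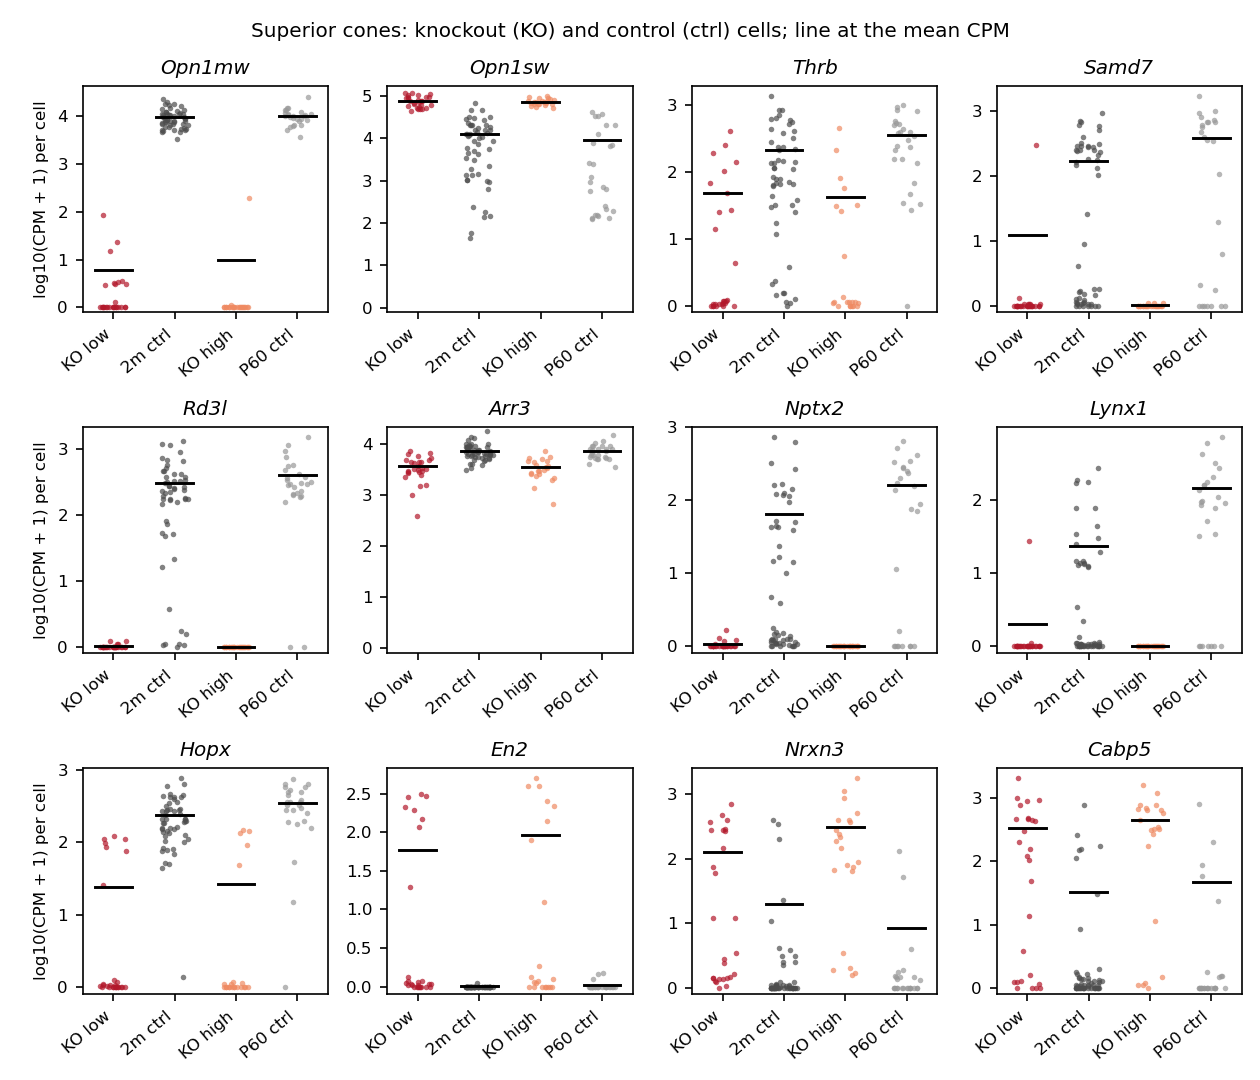
CPM of 12 genes in each superior cone on a log10(CPM + 1) axis, for the low knockout set (27 cells), 2 month controls (53), the high knockout set (22) and P60 controls (26), with a line at the mean CPM. Opn1mw and Rd3l are near 0 in knockout cells, Opn1sw is uniformly high in them, and En2, Nrxn3 and Cabp5 are high in part of the knockout cells of both sets.

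Among 20 measured photoreceptor regulators, 4 were lower and 0 higher in both pairs. Samd7, which encodes a repressor of photoreceptor genes, exceeded 1 CPM in 1 of 50 cells (2%, interval 0.0506% to 10.6%) of the knockout, against 29 of 53 cells (54.7%, interval 40.4% to 68.4%) of the 2 month controls and 18 of 26 P60 controls. Its mean was 11.3 CPM in the low set, from a single cell at 304 CPM, and 169 CPM in 2 month controls. In the high set no cell exceeded 0.109 CPM, where P60 controls averaged 389.9 CPM. In inferior cones Samd7 was low in both genotypes, at 0.00772 CPM in knockout and 2.87 CPM in control cells. Klf9, a zinc finger gene induced by thyroid hormone in many tissues, averaged 12.9 CPM in the low set and 61.1 CPM in 2 month controls (-2.16), and 17.5 CPM in the high set and 122 CPM in P60 controls (-2.74). It was above 1 CPM in few knockout cells, 1 of 27 and 2 of 22, against 27 of 53 and 19 of 26 control cells. Pias3, a SUMO ligase known to act with photoreceptor transcription factors, had ratios of -1.08 and -2.38.

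Thrb itself was the other lower regulator, and with Klf9 it was lower among the 14 measured genes of the thyroid hormone pathway, none of which was higher in both pairs. The regulator list had medians of -1.0 in the low and -0.34 in the high pair, beside -0.22 and -0.04 over all genes. Pooled, its median was 0.025, with 10 ratios above and 10 below 0. Otx2, a homeobox regulator of photoreceptors, met the pooled rule at 369.9 CPM in knockout and 161 CPM in control cones (1.19), with ratios of 0.84 in the low and 2.05 in the high pair.

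Of 24 measured cone phototransduction genes 1 was higher (Opn1sw) and 3 were lower (Opn1mw, Arr3 and Rd3l) in both pairs, and the list's median was 0.11 pooled, 0.0084 in the low and -0.18 in the high pair. Rd3l, a relative of the guanylate cyclase regulator Rd3, exceeded 1 CPM in 0 of 50 cells, which allows a share of up to 6%, in the knockout, against 46 of 53 cells (86.8%, interval 74.7% to 94.5%) of the 2 month controls and 24 of 26 P60 controls. The highest knockout value was 0.222 CPM, where controls averaged 299 CPM at 2 months and 404 CPM at P60. Arr3, the cone arrestin that quenches light-activated opsin, kept levels of 397 to 7247 CPM in the low set (median 3351), against 3135 to 18107 CPM in 2 month controls (median 7009), a ratio of -1.01. In the high pair its means were 3542 CPM in knockout and 7406 CPM in P60 control cells (-1.06). Arr3 thus stood close to the limit of the rule, with overlapping cells.

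Other phototransduction genes met the pooled rule but not both pairs. Gngt2, the cone transducin gamma subunit, averaged 812 CPM in the low set and 480.3 CPM in 2 month controls (0.76), and 1421 CPM in the high set and 673 CPM in P60 controls (1.08). Guca1b, a calcium sensor of guanylate cyclase, averaged 682 CPM and 103 CPM in knockout and control cells of the low pair (2.71), beside 210.2 CPM and 205 CPM in those of the high pair (0.04). Gucy2e, a retinal guanylate cyclase, had ratios of 1.68 and -1.13.

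Of 9 measured genes in the list of GABA, glycine and modulatory receptors, 5 were lower and 0 higher in both pairs, and 7 passed the limits on level. Like the other lists, it was chosen with earlier results of these data known. Its counts and medians thus describe the listed genes and are no independent support for a change of the class. The list's median was -2.01 in the low and -1.82 in the high pair. Lynx1, which tunes nicotinic receptors, exceeded 1 CPM in 1 of 50 knockout cells, at 26.4 CPM, against 21 of 53 cells of the 2 month controls and 19 of 26 P60 controls. Gabrr3, a subunit of GABA receptors, averaged 0.881 CPM in the low set and 90 CPM in 2 month controls (-5.60), and 6.07 CPM in the high set and 115 CPM in P60 controls (-4.04). Fzd10, a receptor for Wnt ligands, had ratios of -5.97 and -6.42, with at most 5.68 CPM in any knockout cell and up to 778 CPM in 2 month controls. Chrnb4, a nicotinic receptor subunit (-1.50 and -2.05), and the orphan receptor Gpr152 (-2.01 and -1.82) still reached 615 and 631 CPM in single knockout cells.

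Of 28 measured genes of the synaptic terminal 4 were lower and 1 was higher in both pairs. Nptx2, a secreted pentraxin that gathers glutamate receptors at synapses, had at most 0.64 CPM in any knockout cell, against up to 719.6 CPM in 2 month controls (25 of 53 above 1 CPM) and up to 633 CPM in P60 controls (17 of 26). Its relative Nptx1 averaged 11.3 CPM in the low set and 121 CPM in 2 month controls, and 4.41 CPM in the high set and 129 CPM in P60 controls. Lrtm1, a leucine-rich repeat membrane gene, stayed at or below 0.161 CPM in knockout cells, with means of 69.8 CPM in 2 month and 163 CPM in P60 controls. Sv2b, a synaptic vesicle protein, overlapped widely, with means of 423 CPM in the low set and 976 CPM in 2 month controls, and 569.6 CPM in the high set and 1311 CPM in P60 controls. The higher one was Nrxn3, described with the higher genes.

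Of 22 measured glycolysis genes 2 were lower and 0 higher in both pairs, where 2.43% of all genes were lower. Ldhb, the lactate dehydrogenase subunit of oxidative tissues, averaged 13.5 CPM in the low set and 166 CPM in 2 month controls (-3.53), and 43.6 CPM in the high set and 101 CPM in P60 controls (-1.19). Aldoc, an aldolase, had ratios of -1.17 and -1.75. Pfkm, Pfkp and Eno2, lower in the pooled comparison (-1.03, -1.06 and -1.09), did not meet the rule in both pairs. The pooled higher call of Gapdh (2.34) became 0.09 in the low and -0.46 in the high pair. Of 28 genes of mitochondrial respiration 1 was lower in both pairs, the creatine kinase Ckmt1 (-1.03 and -1.40).

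Further lower genes of both pairs had single places in the lists or none. Hopx, a homeodomain cofactor gene, exceeded 1 CPM in 7 of 27 low-set cells and 52 of 53 cells of the 2 month controls, with means of 23.2 and 237 CPM, and averaged 25.3 CPM in the high set and 353 CPM in P60 controls. Uap1, which makes UDP-N-acetylglucosamine, averaged 41.3 CPM in the low set and 581 CPM in 2 month controls, and 73.7 CPM in the high set and 544 CPM in P60 controls. Chst2, a carbohydrate sulfotransferase, stayed at or below 0.239 CPM in knockout cells, with means of 80.4 CPM in 2 month and 157 CPM in P60 controls. Zdhhc14, a palmitoyltransferase, had ratios of -5.68 and -7.32. Impg1, a proteoglycan of the matrix around photoreceptors, had -1.48 and -1.56, and Cry1, a repressor of the circadian clock, -2.83 and -1.52.

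Mfge8, a secreted bridge for the uptake of outer segments, averaged 701 CPM in the low set and 1580.3 CPM in 2 month controls, and 787 CPM in the high set and 1863 CPM in P60 controls. Tax1bp1, an autophagy adaptor, had ratios of -1.06 and -1.22, and Cd59a, a complement inhibitor, of -2.17 and -1.61. Pgc, the precursor of a stomach protease, and the long noncoding RNA Gm4827 had no read in any knockout cell. Their 2 month control means were 14.6 and 18.7 CPM. These means lie 3046-fold (Pgc) and 3895-fold (Gm4827) above a floor of 3 reads over all knockout reads together. That floor covers the counting of reads alone and not the spread between cells, so these values are no lower limit on the difference.

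The genes higher in both pairs were often detected in part of the knockout cells. En2, an engrailed homeobox gene known from midbrain and hindbrain patterning, exceeded 1 CPM in 16 of 50 cells (32%, interval 19.5% to 46.7%) of the knockout, 8 of 27 in the low and 8 of 22 in the high set. In the 2 month controls it did so in 0 of 53 cells, which allows a share of up to 5.66%, and in P60 controls in 0 of 26. The 2 month controls held 1 En2 read in all, against 43696 in knockout cells. The latter are 70 CPM of summed reads (Poisson interval 69.4 to 70.7, counting error alone and not the spread between cells). Inferior control cones did hold En2, at 19.5 CPM and in 11 of 50 cells, beside 45.2 CPM and 17 of 48 cells of the inferior knockout. The long noncoding RNA Gm10419 exceeded 1 CPM in 25 of 50 knockout cells, against 0 of 53 and 0 of 26 control cells, with means of 57.3 CPM in the low and 115 CPM in the high set.

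Nrxn3, a presynaptic adhesion molecule and the single gene of the synaptic list higher in both pairs, exceeded 1 CPM in 36 of 50 cells (72%, interval 57.5% to 83.8%) of the knockout, against 12 of 53 cells (22.6%, interval 12.3% to 36.2%) of the 2 month controls and 3 of 26 P60 controls. It averaged 125 CPM in the low set and 18.8 CPM in 2 month controls (2.67), and 315 CPM in the high set and 7.37 CPM in P60 controls (5.24). Cabp5, a calcium-binding protein best known from bipolar cells, had medians of 120.3 CPM in the low set and 0.118 CPM in 2 month controls, and 339 CPM in the high set and 0 CPM in P60 controls. Of 4 measured bipolar markers 1 was higher (Cabp5) and 1 was lower (Lrtm1) in both pairs. Cacna1h, a subunit of low-voltage calcium channels, averaged 107 CPM in the low set and 9.59 CPM in 2 month controls, and 131 CPM in the high set and 45.4 CPM in P60 controls.

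Tmem158, a membrane protein gene, averaged 154 CPM in the low set and 16.4 CPM in 2 month controls, and 226 CPM in the high set and 6.02 CPM in P60 controls. Cxx1c, an X-linked gene whose near-identical copies make its counts uncertain, exceeded 1 CPM in 26 of 27 low-set and 20 of 22 high-set cells, with ratios of 2.80 and 3.56. Reep6, a membrane-shaping protein of rods, had ratios of 1.59 and 1.26, while the rod gene Pde6a, a phosphodiesterase subunit, was lower in both pairs (-4.53 and -3.43). Apoe, a lipid carrier of Müller glia (1.48 and 1.01), was 1 of 11 measured glial markers and the single one higher in both pairs, with 0 lower. The sum of 6 glial markers had a median of 484 CPM in the low set and 857 CPM in 2 month controls, but 574 CPM in the high set and 455 CPM in P60 controls.

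Some large pooled differences rested on part of the cells or libraries. Tbck (3.19 and 2.32) and Xist (1.96 and 8.46) were higher in both pairs. With cells above 1 CPM of Xist left out, 14 knockout cells, all of the low set, and 38 of the 2 month controls remained. Among these the ratio of Tbck was -0.26. Ramp2, a partner of calcitonin-family receptors, was at 15562 CPM in knockout and 5621 CPM in control cones. It missed the rule in the low pair (10028 CPM in knockout and 5621 CPM in control cells, 0.83) and met it in the high pair (21199 CPM in knockout and 8466 CPM in P60 control cells, 1.32). Flna and Ptpn4, with pooled ratios of 4.72 and 3.56, had too few cells above 1 CPM in at least 1 of the sets. The RefSeq intervals of Pias3, Gpr152, Gngt2, Ddit3, Tbck, Pfkm and Pfkp overlap those of other measured genes, and whether counting used strand is not stated, so their reads cannot be fully told apart from those of these neighbours.

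Stress genes met the rule in cones of both zones. Of 179 genes in 6 lists (immediate early genes, chaperones, unfolded protein response, oxidative defence, cell death, ubiquitin and proteasome), 137 were measured. Pooled, 6 were higher (4.38%) and 6 lower (4.38%), with a median of -0.03, beside 4.17% and 5.69% of all genes. Pooled inferior cones had 9 higher (6.57%) and 3 lower (2.19%) stress genes, beside 6.83% and 3.96% of all genes. In both superior pairs 0 were higher and 2 were lower (1.46%, beside 2.43% of all genes): Atf6, a sensor of unfolded protein, and Bax, an effector of cell death. Neither met the rule in pooled inferior cones (0.84 for Atf6 and -0.23 for Bax). In both inferior pairs 2 were higher (1.46%, beside 0.703% of all genes), the heat shock factor Hsf1 and the p53 gene Trp53, and 0 were lower. The difference between the zones was not tested. Bax averaged 5.09 CPM in the low set and 24 CPM in 2 month controls, and 8.37 CPM in the high set and 29.4 CPM in P60 controls. Atf6 had ratios of -1.13 and -1.09. It averaged 29.9 CPM in the low set and 66.6 CPM in 2 month controls, where a single cell had 1981 CPM, so that its call in the low pair depends on this cell. Among cells with 4500 to 6500 genes the pooled ratio of Atf6 was 0.75.

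Hspa1b, a heat-inducible chaperone with the near-identical copy Hspa1a, met the pooled rule at 71.4 CPM in knockout and 21.3 CPM in control cones (1.70). Its ratio was 0.98 in the low pair and -0.59 in the high pair, where knockout cells averaged 108 CPM and P60 controls 163 CPM. Ddit3, the stress-induced transcription factor CHOP, met it at 72.2 CPM in knockout and 22.9 CPM in control cones (1.61), with 1.24 in the low and 0.30 in the high pair. Pooled inferior cones gave 1.72 for Hspa1b and 1.42 for Ddit3, and P60 over 2 month superior controls, with no knockout cell, gave 2.88 and 1.56. Both genes thus met the rule in inferior cones and between the control collections too. Egr2 (1.76 pooled) was at 0.87 without library 35, and Ubqln2 (2.24 and 3.19) averaged 9.51 CPM in the low set, under the limit of 10 CPM. Bcl2l1 (1.07 and 0.43) and Txn1 (1.61 and -0.20) were the other pooled higher stress genes.

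**Figure D4:**
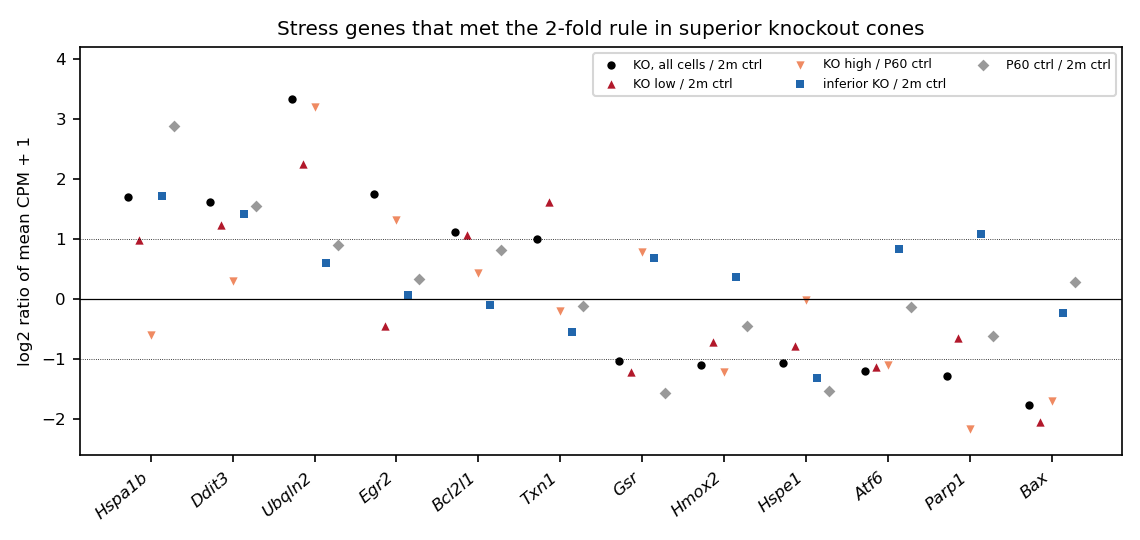
Log2 ratios of the 12 stress genes that met the pooled rule in superior cones (6 higher, 6 lower), for all knockout cells over 2 month controls, the low and the high pair, inferior cones, and P60 over 2 month superior controls. For Hspa1b the pooled superior, pooled inferior and P60 over 2 month ratios are 1.70, 1.72 and 2.88, while the high pair lies at -0.59.

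Beside the inferior retina, the superior genes of both pairs divided. Pooled inferior cones gave 710 higher genes (6.83%) and 411 lower ones (3.96%). With inferior knockout libraries split at the same 20 CPM of Aldoart2 and the high set (22 libraries) taken over the 21 inferior P60 controls, the low pair gave 470 higher (4.52%) and 583 lower (5.61%), the high pair 996 higher (9.59%) and 804 lower (7.74%), and both together 73 higher (0.703%) and 120 lower (1.15%). Of the 65 superior higher genes 4 were also higher in both inferior pairs, and of the 252 lower ones 41 were also lower, with 0 in the opposite direction in both inferior pairs. In pooled inferior cones 18 of the 65 were higher and 4 lower, and 48 of the 252 were lower and 20 higher. Both inferior ratios had the sign of the superior ones for 30 of the 65 and 125 of the 252. The same count was not taken over all genes, so whether these shares differ from those of other genes cannot be told. Lower in both zones were Opn1mw, Thrb, Klf9, Arr3, Rd3l, Nptx1, Nptx2, Lrtm1, Gabrr3, Lynx1, Fzd10, Aldoc, Ldhb, Hopx and Uap1, and higher in both were Nrxn3 and Gm10419.

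Opn1sw differed between genotypes far less in inferior cones, with 73742 CPM in knockout and 54032 CPM in control cells and ratios of 0.43 and 0.06 in the inferior pairs. Impg1 (inferior ratios 0.16 and 0.25), Cry1 (0.16 and -0.21) and the autophagy gene Atg9a (0.20 and 0.68, where superior pairs had -2.79 and -2.67) did not meet the rule in the inferior pairs. Some genes were named for a large gap between zones at a pooled inferior ratio within 0.5. For such genes the lack of a call in inferior cones was in part set by that choice and is no support for a zone difference. The values of the zones stand side by side, and the difference between zones was not tested.

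Regions of open chromatin gave a measure that the RNA rule had not used. The nuclei came from TRb2Cre-KO and TRb2Cre-het cones, the labels do not divide them by zone, and how the 5049 induced and 4072 suppressed regions were chosen is not stated. In which genotype the induced or the suppressed regions are more open is not given here, so the names carry no direction in what follows. Of the genes higher in both pairs 64 had a position, and 25 of them (39.1%) had a suppressed region within 50 kb, against 22 of 244 lower genes (9.02%) and 13.2% of all 10140 placed genes. Induced regions ran the other way, near 18 of 64 higher genes (28.1%), 141 of 244 lower genes (57.8%) and 35.5% of all placed genes. Median gene lengths were 20422 bp for higher, 25312 bp for lower and 23609 bp for all placed genes. The 4590 ChAP regions lay within 50 kb of 46.9% of higher, 57.8% of lower and 39.1% of all genes.

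**Figure D5:**
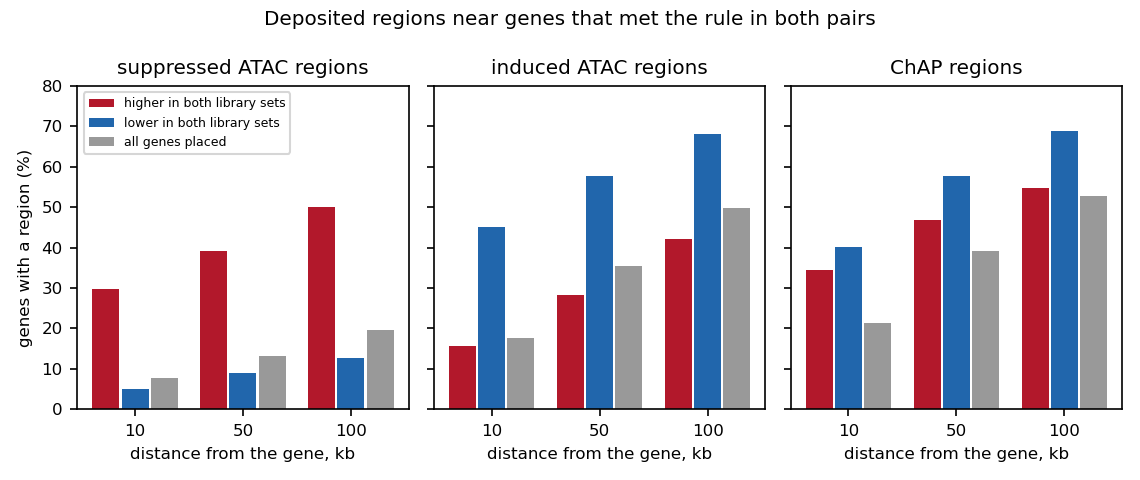
Percent of genes with a deposited region within 10, 50 or 100 kb, for genes higher in both pairs (64 placed), lower in both pairs (244 placed) and all placed genes (10140). At 50 kb suppressed ATAC regions were near 39.1% of higher and 9.02% of lower genes, and induced regions near 28.1% and 57.8%.

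Several named genes followed this layout. Opn1sw (chr6:29376671-29380513, GRCm38) had 10 suppressed regions and 1 induced region within 50 kb, and a ChAP region at chr6:29380490-29380789 that overlaps the gene (deposited p-value 1.2e-19). En2 (chr5:28165696-28172190) had 4 suppressed regions, of which chr5:28165337-28167411 overlaps the gene, and no induced one. Nrxn3, a gene of long interval (chr12:88722701-90334935), had 24 suppressed regions and 1 induced region. On the other side, Opn1mw (chrX:74127466-74150756) had 7 induced regions, Nptx2 and Fzd10 had 10 each, Rd3l had 9 and Lynx1 had 8, with no suppressed region near any of them. A ChAP region 1486 bp from Rd3l (chr12:111982803-111983102) had a deposited p-value of 3.14e-32. Cabp5 was an exception among higher genes, with 1 induced region and no suppressed one. Among lower genes, Pde6a and Impg1 each had 1 suppressed and no induced region, and Tax1bp1 had 2 suppressed regions and 1 induced region. These shares describe position and carry no test.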

How the data were processed

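The RNA table was deposited by the authors in CPM of the whole library, from SMART-Seq v4 and ThruPLEX libraries of single cells, per the labels' protocols. The submitters' processing notes name bcl2fastq 2, STAR 2.7.3a, MACS2 2.2.7.1 and GRCm38/mm10. No source used here states the counting tool, annotation or gene filter. Listed genes held 80% to 93% of a library's reads, and all values (100%) were whole reads within 0.1 reads. ChAP regions were deposited with a p-value of unstated kind.

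Means over cells were taken with pandas 2.3.3 and intervals with scipy 1.17.1. The size rule was run on simulated data with planted changes larger than its 2-fold limit and without library sets. Its error on the present data was therefore not measured. P60 superior libraries 03 and 14 (Pearson r 0.996) were averaged as 1 cell. Regions were set against RefSeq gene intervals of GRCm38.p6 (10149 of 10390 gene IDs matched), with positions counted from 1. For 13 genes a symbol turned into a number by a spreadsheet was restored by gene ID.

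Named were Opn1mw, Opn1sw, Samd7 and Thrb, each list member that met the size rule, and, among genes called by both averages, in each direction the 12 with the largest ratio, the 8 with the largest CPM difference and the 8 with the largest gap between zones at an inferior ratio within 0.5. The 16 genes with the largest ratios in both pairs in each direction were added after the data were seen. Some genes that these rules name are not reported here. Members and the 26 gene lists were chosen with earlier results of these data known.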

Additional observations from a re-analysis of the deposited data

How the results depend on the processing

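No paired analysis was possible because the labels pair no cells between genotypes and no test was run. Counts of genes higher and lower pooled, then higher and lower in both pairs, were 141, 1749, 39 and 870 with averaged log2 values, 120, 1023, 31 and 525 with medians over cells, 1464, 1568, 297 and 871 without a filter on low values, and 47, 109, 11 and 50 at 4-fold. At a pseudocount of 10 CPM 245 were higher pooled and 32 in both pairs, and without the highest cell of each group 451 were lower in both pairs. Pooled lower genes numbered 963 over P60 controls, 958 in the low pair, 1024 in the high pair (766 higher) and 1399 among cells without Xist (14 knockout, all of the low set, and 38 control). The median of all genes moved to -0.30 with averaged logs, -0.22 in the low pair and -0.26 without Xist cells.

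List medians that moved by over 0.5 were, with averaged logs, -1.03 for glycolysis, -0.80 for mitochondrial respiration, -0.39 for the unfolded protein response, -0.95 for oxidative defence and -0.92 for ubiquitin genes. With medians over cells they were -0.31 for receptors and -0.19 for glial markers. The circadian list gave -0.37 without the highest cells, -0.41 without library 35, -0.67 in the low and -0.42 in the high pair. Over P60 controls lists gave -0.58 (regulators), -0.54 (synaptic), -0.81 (immediate early), 0.33 (oxidative), 0.39 (ubiquitin), -0.43 (circadian), 0.54 (rod) and 0 (glial). Regulators gave -1.0 in the low pair and -0.70 without Xist cells, and the high pair gave -0.79 (immediate early), 0.46 (rod) and 0 (glial). M cells made up 53.8% of P60 controls. Regions near lower genes changed with distance, for induced regions to 45.1% at 10 kb and 68.0% at 100 kb, and for ChAP regions to 40.2% and 68.9%.

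Pooled directions turned round for Apoe (-0.13) with averaged logs, and with medians over cells for Gucy2e (-0.18), Pclo (-0.73), Egr2 (-0.050), Txn1 (-0.16), Ubqln2 (-0.022), Slc24a1 (-0.14) and Apoe (-0.82). Over P60 controls they did for Aldoart2 (-1.63), Nrsn1 (0.18), Gucy2e (-0.26), Pclo (-0.30), Gapdh (-1.35), Hspa1b (-1.18), Hspe1 (0.48), Gsr (0.54), Gnat1 (0.071), Pde6b (2.09) and Rlbp1 (0.84). In the low pair they did for Aldoart2 (-0.39), Egr2 (-0.45) and Slc24a1 (-0.018). In the high pair they did for Aldoart2 (-0.59), Hnrnpul2 (-0.17), Nrsn1 (1.24), Gucy2e (-1.13), Med1 (-0.046), Gapdh (-0.46), Hspa1b (-0.59), Gsr (0.79), Txn1 (-0.20), Pde6b (1.32) and Rlbp1 (1.04). Without Xist cells they did for Xist (-0.015), Aldoart2 (-0.62), Sbf2 (-0.55), Tbck (-0.26), 9430037G07Rik (-0.70) and Slc24a1 (-1.57), and among cells with 4500 to 6500 genes for Atf6 (0.75). The cause was not tested. Of 99 named genes 98 kept their call at equal depth and 96 without library 35. The check at equal depth covered the pooled 2 month groups alone, not the P60 controls.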

Other observations

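Knockout library 35 held 40938 CPM of Ramp2, within the range of the other knockout superior cones (32.7 to 53406 CPM). It had 2187 CPM of Pcp4 and 1583 CPM of Tagln3, where the other 49 knockout cells had at most 22.1 CPM of Pcp4 and 35.04 CPM of Tagln3. Opn1sw was at 225 CPM in this library and at least 42658 CPM in the others.

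Superior control cones of younger ages also held some genes that were higher in the knockout. At P2 the means were 308 CPM of Cxx1c, 182 CPM of Tmem158 and 311 CPM of Cabp5. At P21 they were 63.3 CPM of Cxx1c, 29.4 CPM of Tmem158 and 96.6 CPM of Cabp5. En2 averaged at most 0.0281 CPM and Gm10419 at most 0.107 CPM at P2 and P21.

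Knockout superior cells also had fewer genes above 0 at equal depth, with a median of 3773 genes in knockout and 4840 in 2 month control cells after each cell was thinned to the same 3000000 reads. Gene number also varied among the 2 month controls by library number, with 4453 to 4814 in libraries 36 to 41 and 6764 to 7934 in libraries 42 to 53 before thinning. The shallower P60 superior controls had a median of 4374 without thinning. Whether the difference follows genotype was not tested.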
